A study of Mus musculus with 8 samples.

Results

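The 38 genes described here encode the enzymes of glycolysis and of the citric acid cycle, with the neuronal glucose carrier at the start of the route and the pyruvate dehydrogenase kinases at its branch point. They were chosen by gene symbol and are 38 of the 24883 gene rows of the table. Glycolysis is taken from glucose uptake to lactate dehydrogenase (19 genes), and the citric acid cycle from the pyruvate dehydrogenase complex and its kinases to malate dehydrogenase (19 genes). RNA was sequenced from the visual cortex of adult C57BL/6J mice in 8 libraries. In the 4 anti-miR-29a libraries the cortex had been injected with a locked nucleic acid (LNA) oligonucleotide complementary to miR-29a, a short synthetic strand that binds the microRNA and blocks it. The 4 scrambled libraries came from cortex injected in the same way with an LNA oligonucleotide of scrambled sequence. Both groups were injected on postnatal day 122 and collected on postnatal day 129, 7 days later, and carry no genetic alteration in the labels. The labels used here do not say whether a library came from 1 mouse or from a pool, nor that the libraries of a group came from separate mice, so the p-values reflect only how these libraries vary, and a part of that may be technical. The libraries hold all the cell types around an injection site, so fewer cells of a type and less RNA per cell cannot be told apart.

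Glycolysis splits glucose into pyruvate in the cytosol, and lactate dehydrogenase interconverts pyruvate and lactate. The pyruvate dehydrogenase complex feeds pyruvate into mitochondria as acetyl-CoA, its kinases switch the complex off by phosphorylation, and the citric acid cycle oxidises the acetyl group to drive respiration. The adult brain runs mainly on glucose, neurons and glia carry different isozymes of several steps, and the genes of both routes are among the most strongly transcribed in cortex. A microRNA lowers an mRNA by pairing its seed, bases 2 to 8 from its 5′ end, with matching bases in the 3′ UTR, and blocking a microRNA is known to raise transcripts that carry such a match.

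Mature miR-29a-3p lies at chr6:31062673-31062694 on the minus strand (RefSeq, GRCm38.p6) and is shown with its seed in capitals, because the matches among the enzyme genes are read from it.
miR-29a-3p: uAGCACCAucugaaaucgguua
Of the 38 genes, 3 (7.89%) held the complement of the seed, TGGTGCT, in their longest annotated 3′ UTR, against 2074 of the 13158 tested rows with a 3′ UTR (15.8%). The 3 are Slc2a3, which encodes the neuronal glucose carrier, Dlat, the acetyltransferase core of the pyruvate dehydrogenase complex, and Fh1, fumarate hydratase. Their matches are printed 5′ to 3′ in the direction of the transcript with the 7 bases in capitals (GENCODE M21, GRCm38), and lie on the minus strand at chr6:122729340-122729346 for Slc2a3, chr9:50635509-50635515 for Dlat and chr1:175600777-175600783 for Fh1.
Slc2a3: gaaagaaagttTGGTGCTggagagag
Dlat: gaacaggcaccTGGTGCTgcatccgc
Fh1: gtgttaaggatTGGTGCTagcccatg
The match of Fh1 is followed by an A, which makes it an 8-base site, and those of Slc2a3 and Dlat are 7-base matches. The log2 differences of anti-miR-29a minus scrambled libraries were 0.24 for Slc2a3, 0.11 for Dlat and 0.14 for Fh1. Their adjusted p-values in limma were 0.234, 0.621 and 0.517. The difference was positive in 68.4% of the 38 genes, most of which hold no match, and in 56.6% of all tested rows. A match of these letters is a description and not a shown site of pairing.

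The values are FPKM, fragments corrected for transcript length and for the size of the library, so levels of different genes can be compared per length. How the libraries were scaled to each other is not given in the labels and headers read here. Between 12538 and 12769 rows reached 1 FPKM in a library. The spacing of low values put the depth of the libraries at 0.983 to 1.14 of that of scrambled library 1, with the groups interleaved, and total depth is unknown. Markers of cortical excitatory neurons summed to 727 to 786 FPKM in the anti-miR-29a libraries and 742 to 769 FPKM in the scrambled libraries, with Slc17a7, the vesicular glutamate transporter of cortex, at 607 ± 26.4 FPKM in the anti-miR-29a libraries and 607 ± 18 FPKM in the scrambled libraries (SD, n = 4 each). The 8 markers of other brain regions summed to 9.14 to 10.2 FPKM in the anti-miR-29a libraries and 9.5 to 15.7 FPKM in the scrambled libraries. Only 1 of them, Pmch, was listed at 0 in every library. Slc17a6 averaged 4.58 FPKM in the anti-miR-29a libraries and 4.22 FPKM in the scrambled libraries. Drd1, Tcf7l2 and Prox1 were also read in every library. Gabra6, a cerebellar granule cell gene, averaged 1.67 FPKM in the scrambled libraries, because scrambled library 3 alone read 6.67 FPKM. Oligodendrocyte markers spanned 939 to 1253 FPKM in the anti-miR-29a libraries and 844 to 1724 FPKM in the scrambled libraries.

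All 38 genes passed the filter of a mean of 0.5 FPKM, as did 13912 rows of the table. The enzyme genes were strongly expressed: 17 had a mean of 100 FPKM or more, 14 lay between 20 and 100, 3 between 5 and 20, and 4 under 5 FPKM. Gapdh, which oxidises glyceraldehyde 3-phosphate, was the highest with a mean of 1742 FPKM over the 8 libraries. It was followed by Aldoa, the ubiquitous aldolase, and both belong with Pkm (pyruvate kinase) and Ldhb (the heart-type lactate dehydrogenase subunit) to the top 1% of the tested rows. The lowest was Hk2, the inducible hexokinase, with a mean of 0.914 FPKM. The other genes under 5 FPKM were Pfkfb3, which makes the activator of phosphofructokinase, Pdk4, a pyruvate dehydrogenase kinase, and Suclg2, the GTP-forming subunit of succinyl-CoA synthetase. Spread between libraries of a group was small, with a median SD of 0.081 on the log2 scale over the 38 genes, against 0.17 over all tested rows and 0.094 over rows with a mean of at least 20 FPKM. It was 0.064 for the glycolysis genes and 0.096 for the citric acid cycle genes.

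**Figure D1:**
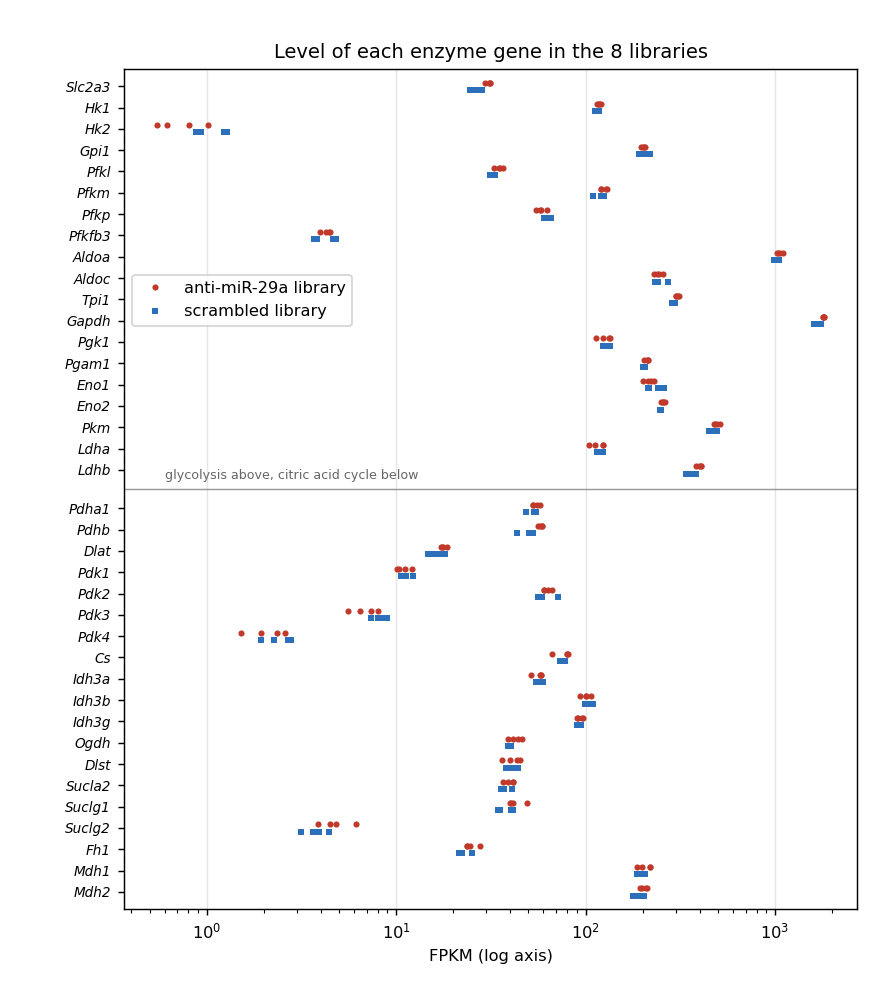
FPKM of each of the 38 genes on a log axis, with 1 mark per library: red circles for the 4 anti-miR-29a libraries and, just under them, blue squares for the 4 scrambled libraries. The marks of a gene lie close together compared with the distance from Hk2 (mean 0.914 FPKM) to Gapdh (mean 1742 FPKM).

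The question of the comparison is which transcripts differ when miR-29a is blocked. None of the 38 genes passed an adjusted p of 0.05 in limma, where 2 of 13912 rows did (0.0144%). At an unadjusted p under 0.05, 4 genes were higher in the anti-miR-29a libraries (Slc2a3, Gapdh, Ldhb and Pdhb), 10.5% of the 38, where 7.54% of all tested rows were higher. One gene, Pdk3, was lower at that level, 2.63% of the 38, where 3.18% of all rows were lower. In 5 genes (Slc2a3, Tpi1, Gapdh, Ldhb and Pdhb), 13.2% of the 38, every anti-miR-29a library lay above every scrambled library, where 4.02% of all rows did so. In 0 genes did every anti-miR-29a library lie below every scrambled one, where 2.29% of all rows did so. Strongly expressed rows were on the higher side more often than the rest: among the 3105 with a mean of at least 20 FPKM, 13.5% were higher at an unadjusted p under 0.05 and 7.25% had no overlap in that direction.

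Most of the differences were small. The median log2 difference was 0.046 over the 38 genes, 0.045 over the glycolysis genes and 0.052 over the citric acid cycle genes, against 0.026 over all tested rows. The difference was positive in 26 genes and negative in 12 (68.4% positive), where 56.6% of all tested rows and 63.7% of rows with a mean of at least 20 FPKM were positive. The 95% interval of the difference lay within 0.2 log2 units of 0 for 19 genes, 12 of glycolysis and 7 of the citric acid cycle, and within 0.5 for 34. It excluded 0 for 5 genes, with no adjustment over genes.

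This balance of signs depended on how the libraries were scaled. Quantile normalization, which gives every library the same distribution of values, left 16 positive and 22 negative, and taking out of each library a fitted dependence of the values on GC content and transcript length left 11 positive and 27 negative. Centring each library on its median left 23 positive and 15 negative. At an unadjusted p under 0.05 there were 2 genes higher and 3 lower after quantile normalization and 2 higher and 3 lower with that trend removed. In both these were 5.26% and 7.89% of the 38. Of all tested rows, 5.13% were higher and 5.73% lower after quantile normalization, and 4.04% and 3.65% with the trend removed. Pdhb and Slc2a3 were the 2 higher ones in both, and Pdk3 was among the 3 lower ones in both. Over the whole table the split of 1049 higher and 443 lower rows became 713 and 797 with quantile normalization, 557 and 504 with the trend removed and 748 and 731 with median centring. The 4 genes under 5 FPKM were not tested at a mean of at least 5 FPKM, so they have 19 alternative settings and the others 20. Over the settings in which each gene was tested, 15 of the 38 genes kept their sign. Changed filters, robust empirical Bayes and a replicate block cannot alter a difference, so only the other settings could turn a sign. Slc2a3, Pfkl, Pdha1, Pdhb, Dlat, Ogdh, Suclg1, Suclg2, Fh1 and Mdh1 stayed positive, and Hk2, Pfkp, Pdk3, Pdk4 and Idh3b stayed negative.

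**Figure D2:**
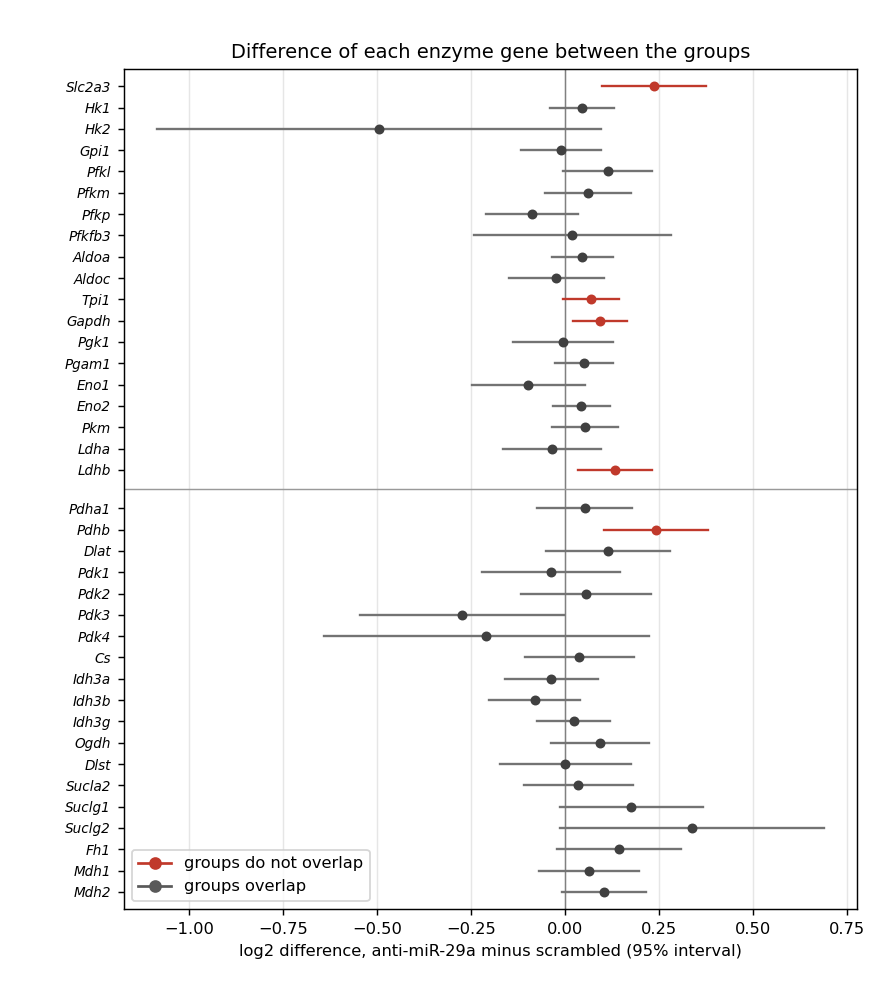
Log2 difference of anti-miR-29a minus scrambled libraries for each gene, with its 95% interval from limma, glycolysis above the line and the citric acid cycle below it. The 5 genes in red are those whose groups do not overlap, and Hk2 and Pdk4, both under 5 FPKM, have the longest bars.

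The library levels showed which samples carried the small positive median. Relative to the scrambled mean of each gene, the median over the 38 genes was 0.0037, 0.070, 0.073 and 0.059 log2 units in anti-miR-29a libraries 1 to 4, against -0.057, 0.0083, 0.012 and 0.018 in scrambled libraries 1 to 4. Anti-miR-29a library 1 lay among the scrambled libraries and the other 3 lay above all of them, while scrambled library 1 was the lowest of all 8. Over all tested rows the same median was -0.0021, 0.068, 0.012 and 0.038 in anti-miR-29a libraries 1 to 4. In scrambled libraries 1 to 4 it was -0.0078, -0.0037, 0.0069 and 0.012. The level of the 38 genes in anti-miR-29a library 2 was thus close to that of the whole table. Summed over the 38 genes, the libraries held 6723, 6934, 7080 and 7002 FPKM in the anti-miR-29a group, against 6414, 6713, 6847 and 6728 FPKM in the scrambled group. The sums of the groups overlapped.

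Glucose enters neurons through the carrier encoded by Slc2a3 (chromosome 6, 122727809 to 122801640, minus strand, mm10). It read 31.3, 31.5, 31.1 and 29.3 FPKM in anti-miR-29a libraries 1 to 4, against 25.1, 24.4, 28.4 and 26.7 FPKM in scrambled libraries 1 to 4. Every anti-miR-29a library was above every scrambled one. The means were 30.8 ± 0.983 FPKM in the anti-miR-29a libraries and 26.1 ± 1.78 FPKM in the scrambled libraries (SD, n = 4 each), a log2 difference of 0.24 with a standard error of 0.062 and a 95% interval of 0.099 to 0.37, which is 17.8% higher. The unadjusted p was 0.0033 and the adjusted p over all tested rows 0.234 in limma. The difference was 0.21 after quantile normalization and 0.28 with the trend removed, and 0.20 to 0.28 when each library was left out in turn.

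Hexokinase traps glucose in the cell as glucose 6-phosphate. Hk1, the main brain hexokinase, read 115, 118, 117 and 121 FPKM in the anti-miR-29a libraries and 112, 113, 115 and 117 FPKM in the scrambled libraries, a difference of 0.045 log2 units (adjusted p = 0.703) that turned to -0.0055 after quantile normalization and -0.0022 with the trend removed. Hk2 read 0.548, 1.02, 0.618 and 0.805 FPKM in the anti-miR-29a libraries and 1.27, 0.934, 1.23 and 0.878 FPKM in the scrambled libraries. Its groups overlapped, since anti-miR-29a library 2 was above scrambled libraries 2 and 4. The difference was -0.49 log2 units with a standard error of 0.27 (adjusted p = 0.530), the widest interval of the 38 genes, -1.08 to 0.097, and with a pseudocount of 1 in place of 0.1 it was -0.25. Gpi1, the isomerase that turns glucose 6-phosphate into fructose 6-phosphate, averaged 202 ± 3.59 FPKM in the anti-miR-29a libraries and 204 ± 12.4 FPKM in the scrambled libraries (SD, n = 4 each).

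Phosphofructokinase commits the sugar to glycolysis and is built from 3 kinds of subunit, named after muscle, liver and platelets. The muscle-type subunit Pfkm read 121, 129, 120 and 128 FPKM in the anti-miR-29a libraries and 110, 126, 120 and 122 FPKM in the scrambled libraries. Pfkl, the liver type, read 34.8, 35.4, 36.8 and 32.9 FPKM in the anti-miR-29a libraries, against 33.2, 31.5, 31.5 and 33.1 FPKM in the scrambled libraries. Only anti-miR-29a library 4 kept the groups of Pfkl from separating. Its difference of 0.11 log2 units had an interval of -0.0060 to 0.23 (unadjusted p = 0.0604, adjusted p = 0.486). The platelet-type subunit Pfkp ran the other way: 57.9, 58.0, 62.7 and 54.8 FPKM in the anti-miR-29a libraries and 60.4, 61.1, 60.7 and 65.7 FPKM in the scrambled libraries, a difference of -0.087 (adjusted p = 0.603). This difference was -0.13 after quantile normalization, where Pfkp was one of the 3 genes lower at an unadjusted p under 0.05 in limma, and -0.018 with the trend removed. Anti-miR-29a library 3 was the single library of its group inside the scrambled range. Pfkfb3 averaged 4.28 ± 0.233 FPKM in the anti-miR-29a libraries and 4.25 ± 0.570 FPKM in the scrambled libraries (SD, n = 4 each).

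Aldolase cuts the 6-carbon sugar into a pair of triose phosphates, and triose phosphate isomerase interconverts them. The ubiquitous Aldoa read 1022, 1041, 1102 and 1066 FPKM in the anti-miR-29a libraries and 985, 1011, 1051 and 1051 FPKM in the scrambled libraries. Aldoc, the brain aldolase, known as an astrocyte gene in cortex, read 231, 257, 243 and 238 FPKM in the anti-miR-29a libraries and 233, 238, 274 and 240 FPKM in the scrambled libraries. Neither differed beyond the spread between libraries, with 0.046 log2 units for Aldoa (adjusted p = 0.684; -0.078 after quantile normalization) and -0.023 for Aldoc (adjusted p = 0.911). Tpi1 (chromosome 6, 124810586 to 124814296, minus strand) read 299, 307, 312 and 299 FPKM in the anti-miR-29a libraries, against 288, 286, 292 and 295 FPKM in the scrambled libraries. Its groups did not overlap, though by a narrow margin. The difference was 0.069 log2 units with a standard error of 0.033 (adjusted p = 0.492), and it turned to -0.029 after quantile normalization and -0.059 with the trend removed.

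The lower part of glycolysis, where ATP is gained, is led by Gapdh (chromosome 6, 125161715 to 125166467, minus strand). It read 1783, 1785, 1817 and 1807 FPKM in the anti-miR-29a libraries, against 1613, 1699, 1758 and 1674 FPKM in the scrambled libraries. All anti-miR-29a values were above all scrambled ones, and they were closer together, with an SD of 16.9 FPKM in the anti-miR-29a libraries and 60.3 FPKM in the scrambled libraries (n = 4 each). The difference was 0.093 log2 units with a standard error of 0.033 and an interval of 0.021 to 0.17, 6.68% higher (unadjusted p = 0.017, adjusted p = 0.359). It was 0.012 with the trend removed and -0.15 after quantile normalization, there with a standard error of 0.14 (unadjusted p = 0.295 in limma). Quantile normalization was the only alternative setting that turned the sign of this much-used reference gene, and the size also depended on the scaling. Gapdh shares 18.2% of its 100-base stretches with 74 other annotated genes. One of them with a row of its own, Gm12070, read 162, 167, 173 and 172 FPKM in the anti-miR-29a libraries and 157, 158, 165 and 156 FPKM in the scrambled libraries, and adding its values to those of Gapdh left the difference at 0.093.

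The next enzymes stood close together in both groups. Pgk1, phosphoglycerate kinase, averaged 126 ± 9.71 FPKM in the anti-miR-29a libraries and 126 ± 5.0 FPKM in the scrambled libraries (SD, n = 4 each). It is uncertain as a value of 1 gene, since 67.0% of its 100-base stretches occur in other annotated genes. Pgam1, phosphoglycerate mutase, averaged 210 ± 4.83 FPKM in the anti-miR-29a libraries and 203 ± 2.45 FPKM in the scrambled libraries, and shares 39.7% of its stretches. Pkm, which makes pyruvate, averaged 491 ± 15.3 FPKM in the anti-miR-29a libraries and 473 ± 18.4 FPKM in the scrambled libraries. The log2 difference was -0.0050 for Pgk1, 0.051 for Pgam1 and 0.053 for Pkm, with adjusted p from 0.635 to 0.984.

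Enolase comes in a ubiquitous form, Eno1, and a neuronal form, Eno2, which is a common neuron marker. Eno2 read 258, 249, 264 and 255 FPKM in the anti-miR-29a libraries and 251, 246, 250 and 247 FPKM in the scrambled libraries. Eno1 read 201, 215, 221 and 229 FPKM in the anti-miR-29a libraries, against 215, 241, 214 and 258 FPKM in the scrambled libraries, a difference of -0.097 with overlapping groups (adjusted p = 0.643). Its values are uncertain as those of 1 gene. Eno1b, a retrogene copy of Eno1, shares 58.6% of the 100-base stretches of Eno1 and has 2 rows in the table. The first row read 51.7, 113, 105 and 50.6 FPKM in the anti-miR-29a libraries and 105, 45.5, 100 and 50.3 FPKM in the scrambled libraries. The second row read 109, 54.2, 53.9 and 91.4 FPKM in the anti-miR-29a libraries and 49.9, 66.4, 48.8 and 45.9 FPKM in the scrambled libraries. In the 4 libraries where the first row exceeded 100 FPKM the second was low, in anti-miR-29a libraries 1 and 4 it was the other way round, and in scrambled libraries 2 and 4 both rows were low and Eno1 had its highest values. Summed over Eno1 and both copy rows, the values were 361, 382, 381 and 371 FPKM in the anti-miR-29a libraries, against 370, 353, 363 and 354 FPKM in the scrambled libraries. The sum varied less than Eno1 alone, with a within-group SD of 0.035 against 0.11 log2 units, and its difference was 0.053 with a standard error of 0.035 (adjusted p = 0.626), opposite in sign to that of Eno1 alone. This sum was chosen after the values had been seen.

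**Figure D3:**
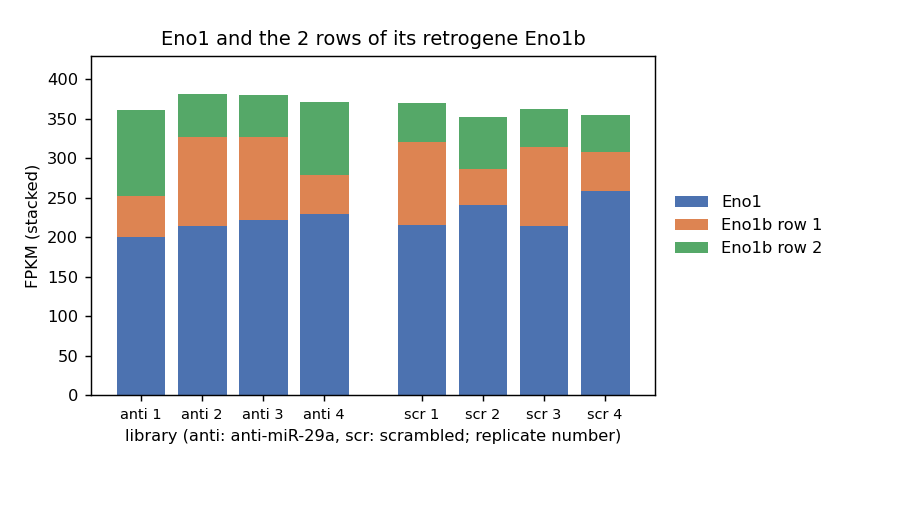
Stacked FPKM of Eno1 and of the 2 rows of its retrogene Eno1b in the 4 anti-miR-29a and the 4 scrambled libraries. The share of the copy rows differs from library to library while the whole bar stays between 353 and 382 FPKM.

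Lactate dehydrogenase is a tetramer of Ldha and Ldhb subunits. Ldhb-rich enzyme is the form linked with oxidation of lactate and Ldha-rich enzyme with its production. Ldhb (chromosome 6, 142490249 to 142507957, minus strand) read 382, 407, 395 and 407 FPKM in the anti-miR-29a libraries, against 339, 369, 382 and 361 FPKM in the scrambled libraries. Its groups did not overlap, but the lowest anti-miR-29a value (library 1) and the highest scrambled value (library 3) were nearly equal. The difference was 0.13 log2 units with a standard error of 0.044 and an interval of 0.036 to 0.23, 9.68% higher (unadjusted p = 0.0124, adjusted p = 0.324), and it was -0.0037 with the trend removed. Ldha read 105, 124, 123 and 112 FPKM in the anti-miR-29a libraries and 119, 115, 117 and 123 FPKM in the scrambled libraries, a difference of -0.034 (adjusted p = 0.862). The Ldha values of the anti-miR-29a libraries lay on both sides of the scrambled ones.

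Pyruvate enters the mitochondrial route through the pyruvate dehydrogenase complex, whose first enzyme has an alpha subunit, Pdha1, and a beta subunit, Pdhb. Pdhb (chromosome 14, 8165996 to 8173025, minus strand) read 56.4, 59.0, 59.2 and 57.8 FPKM in the anti-miR-29a libraries, against 43.5, 50.6, 52.7 and 50.1 FPKM in the scrambled libraries. Every anti-miR-29a library was above every scrambled one, and scrambled library 1 was the lowest by far. The difference was 0.24 log2 units with a standard error of 0.062 and an interval of 0.10 to 0.38, 18.3% higher, the smallest p among the 38 genes (unadjusted p = 0.0030, adjusted p = 0.234). It was 0.20 after quantile normalization and 0.20 with the trend removed, and without scrambled library 1 it was 0.18, the lowest of the values with a library left out, which reached 0.28. The other subunits measured with it had smaller differences. Pdha1 averaged 54.6 ± 2.55 FPKM in the anti-miR-29a libraries and 52.7 ± 2.91 FPKM in the scrambled libraries, and Dlat averaged 17.8 ± 0.594 FPKM in the anti-miR-29a libraries and 16.4 ± 1.45 FPKM in the scrambled libraries (SD, n = 4 each). The groups overlapped for both, with 0.052 log2 units for Pdha1 (adjusted p = 0.780) and 0.11 for Dlat (adjusted p = 0.621). Of the 100-base stretches of Pdha1, 12% also belong to a gene on the other strand, and the library kit does not mark strand, so reads of the pair cannot be told apart there. That gene, Map3k15, had a mean of 0.283 FPKM over the 8 libraries, against 53.6 FPKM for Pdha1.

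Of the kinases that phosphorylate and silence the complex, 3 of 4 had a negative difference, with a median of -0.12 log2 units, and none passed an adjusted p of 0.05. Pdk3 (chromosome X, 93764607 to 93832201, minus strand) read 7.38, 8.03, 6.44 and 5.55 FPKM in the anti-miR-29a libraries, against 8.55, 8.04, 7.37 and 9.01 FPKM in the scrambled libraries. Its groups overlapped, because anti-miR-29a libraries 1 and 2 lay above scrambled library 3. The difference was -0.27 log2 units with a standard error of 0.12 (unadjusted p = 0.0489, adjusted p = 0.462). With a library left out it ranged from -0.35 to -0.18, the smallest without anti-miR-29a library 4. Pdk2, the most abundant kinase here, read 63.6, 66.2, 60.5 and 60.4 FPKM in the anti-miR-29a libraries and 55.8, 58.6, 71.2 and 56.7 FPKM in the scrambled libraries. Scrambled library 3 was above every other library for Pdk2, and the other 3 scrambled libraries were below all anti-miR-29a ones. The difference of Pdk2 was 0.056 (adjusted p = 0.828), and -0.034 with the trend removed. Pdk4, known for its induction by fasting, read 1.93, 2.36, 1.53 and 2.6 FPKM in the anti-miR-29a libraries and 1.95, 2.78, 2.69 and 2.27 FPKM in the scrambled libraries, with a difference of -0.21 and an interval of -0.64 to 0.22. Without anti-miR-29a library 3, its lowest value, the difference of Pdk4 was -0.072, and without anti-miR-29a library 4 it was -0.31. Pdk1 averaged 11 ± 0.89 FPKM in the anti-miR-29a libraries and 11.2 ± 0.725 FPKM in the scrambled libraries (SD, n = 4 each).

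**Figure D4:**
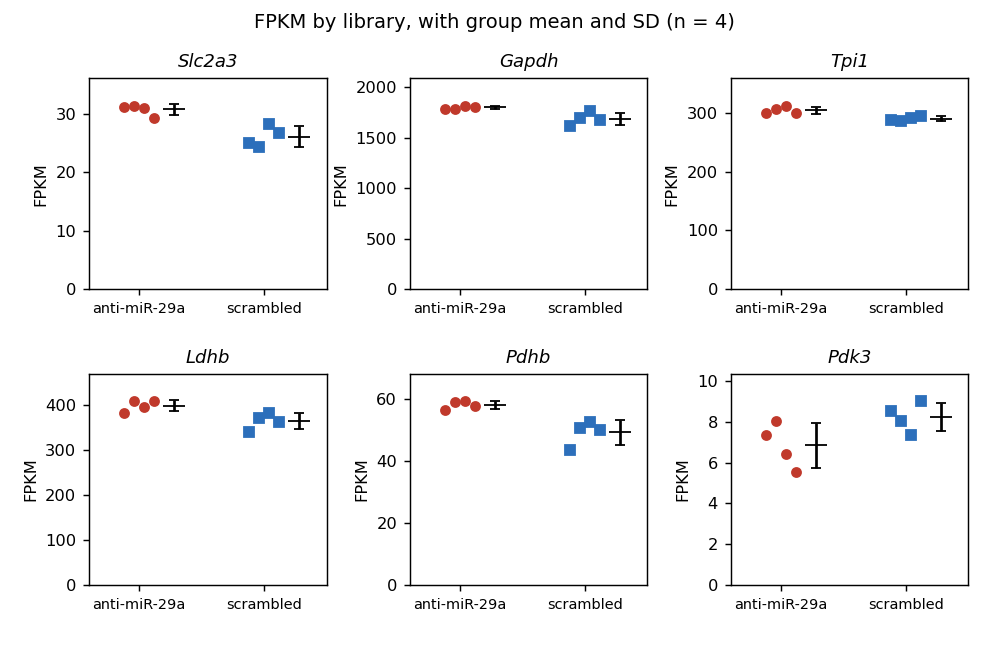
FPKM in each library for the 5 genes whose groups do not overlap and for Pdk3, with the 4 anti-miR-29a libraries as red circles on the left, the 4 scrambled libraries as blue squares on the right, and the mean and SD of each group beside them. Every axis starts at 0, so that the 18.3% of Pdhb and the 17.8% of Slc2a3 can be seen against the whole level.

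Of the 12 genes of the cycle itself, 10 had a positive and 2 a negative difference, with a median of 0.051 log2 units. None had an unadjusted p under 0.05 with the values as deposited and none had groups without overlap. In a fit with the replicate number as a block, which does not pair these libraries, Suclg1 had an unadjusted p of 0.0175 and Mdh2 of 0.0436, both on the higher side. Succinyl-CoA synthetase, which gains a nucleotide triphosphate directly, has a common subunit, Suclg1, and a partner that decides between ATP (Sucla2) and GTP (Suclg2). Suclg2 read 4.49, 4.82, 6.17 and 3.87 FPKM in the anti-miR-29a libraries, against 4.43, 3.14, 3.91 and 3.65 FPKM in the scrambled libraries. Its difference was 0.34 log2 units, with a standard error of 0.16 and an interval of -0.014 to 0.69 (unadjusted p = 0.0582, adjusted p = 0.481). Without anti-miR-29a library 3, its highest value, the difference was 0.22, and with any 1 library left out it reached at most 0.44. Anti-miR-29a library 4 was inside the scrambled range. Sucla2 read 38.8, 41.4, 41.4 and 36.6 FPKM in the anti-miR-29a libraries and 35.9, 40.8, 36.9 and 40.8 FPKM in the scrambled libraries, with groups that overlapped widely. Suclg1 averaged 42.8 ± 4.29 FPKM in the anti-miR-29a libraries and 37.8 ± 3.44 FPKM in the scrambled libraries (SD, n = 4 each), a difference of 0.18 (adjusted p = 0.490) that was 0.11 without anti-miR-29a library 3.

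Malate dehydrogenase closes the cycle in mitochondria (Mdh2) and serves the malate-aspartate shuttle in the cytosol (Mdh1). Mdh2 read 193, 199, 209 and 210 FPKM in the anti-miR-29a libraries, against 179, 189, 204 and 184 FPKM in the scrambled libraries. Its difference was 0.10 log2 units with an interval of -0.0068 to 0.21 (unadjusted p = 0.0631, adjusted p = 0.490), and scrambled library 3 was the one that lay among the anti-miR-29a values. With the trend removed the difference of Mdh2 was -0.014. Mdh1 read 186, 199, 218 and 219 FPKM in the anti-miR-29a libraries and 186, 206, 193 and 201 FPKM in the scrambled libraries. Fh1, which carries a seed match, averaged 25.0 ± 1.86 FPKM in the anti-miR-29a libraries and 22.6 ± 1.66 FPKM in the scrambled libraries (SD, n = 4 each), a difference of 0.14 (adjusted p = 0.517).

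Citrate synthase, Cs, averaged 77 ± 6.8 FPKM in the anti-miR-29a libraries and 74.7 ± 2.08 FPKM in the scrambled libraries, and its difference of 0.038 became 0.11 without anti-miR-29a library 1. Ogdh, the first subunit of the 2-oxoglutarate dehydrogenase complex, averaged 42.7 ± 2.96 FPKM in the anti-miR-29a libraries and 40.0 ± 0.777 FPKM in the scrambled libraries, a difference of 0.093 (adjusted p = 0.604). Dlst, the core subunit of the same complex, averaged 41.2 ± 4.05 FPKM in the anti-miR-29a libraries and 41.1 ± 2.58 FPKM in the scrambled libraries. The 3 subunits of NAD-dependent isocitrate dehydrogenase did not share a sign. Idh3b averaged 100 ± 5.47 FPKM in the anti-miR-29a libraries and 106 ± 5.19 FPKM in the scrambled libraries, a difference of -0.081, against -0.036 for Idh3a and 0.023 for Idh3g. Idh3b was one of the 3 genes with an unadjusted p under 0.05 on the lower side after quantile normalization (-0.13) and with the trend removed (-0.14), and its adjusted p was then 0.421 and 0.598.

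Ratios of isozymes within a library do not depend on how libraries are scaled as a whole, so 8 were compared by two-sided exact permutation tests with 70 relabellings each, whose smallest p is 0.0286. A single ratio at that smallest p could reach an adjusted p of only 0.229 over the 8, and 5 of the 8 would have to be at it for any to pass 0.05. None passed, with adjusted p of 0.305 to 0.571, which says little at this number of libraries. The groups overlapped in every ratio. Ldha made up 22.6 ± 1.17% of the summed lactate dehydrogenase FPKM in the anti-miR-29a libraries and 24.7 ± 1.21% in the scrambled libraries (SD, n = 4 each), a log2 difference of the ratio of -0.17 (exact permutation p = 0.0857). Hk2 made up 0.628 ± 0.17% of Hk1 plus Hk2 in the anti-miR-29a libraries and 0.937 ± 0.185% in the scrambled libraries, a difference of -0.54 (exact permutation p = 0.0857). Pfkp made up 31.9 ± 1.9% of Pfkp plus Pfkm in the anti-miR-29a libraries and 34.2 ± 1.3% in the scrambled libraries (exact permutation p = 0.114), and this ratio turned sign, to 0.0030, with the trend removed. The GTP-forming Suclg2 made up 10.8 ± 1.47% of Suclg2 plus Sucla2 in the anti-miR-29a libraries and 8.98 ± 1.67% in the scrambled libraries (exact permutation p = 0.2). Shares of Aldoc, Pdk4 and Mdh1 against their partners Aldoa, Pdk2 and Mdh2 had exact permutation p-values of 0.314, 0.229 and 0.571. Eno1 made up 45.8 ± 1.48% of Eno1 plus Eno2 in the anti-miR-29a libraries and 48.2 ± 2.48% in the scrambled libraries (exact permutation p = 0.2), and with the copy rows added to Eno1 the difference of the ratio was 0.0093 (exact permutation p = 0.771).

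Shorter transcripts read higher in the anti-miR-29a libraries over the whole table, and the enzyme genes have shorter transcripts than most, with a median of 2777 nt against 3387 nt. Over all tested genes the median log2 difference was 0.090 for transcripts of 1000 to 2000 nt, 0.057 for 2000 to 3000 nt, 0.032 for 3000 to 4000 nt, -0.0065 for 4000 to 6000 nt and -0.060 above that. The enzyme genes had medians of 0.051 (7 genes), 0.048 (16 genes), 0.038 (7 genes), 0.033 (6 genes) and 0.075 (2 genes) in the same classes. In the classes that hold 23 of the 38 genes, those up to 3000 nt, the enzyme genes lay below the median of all genes of their length. With the trend removed the median was -0.019 over the 38 genes, -0.040 over glycolysis and -0.0059 over the citric acid cycle, against -0.0075 over all rows that could be fitted. Slc2a3, with a transcript of 6253 nt, is one of the 2 long ones.

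**Figure D5:**
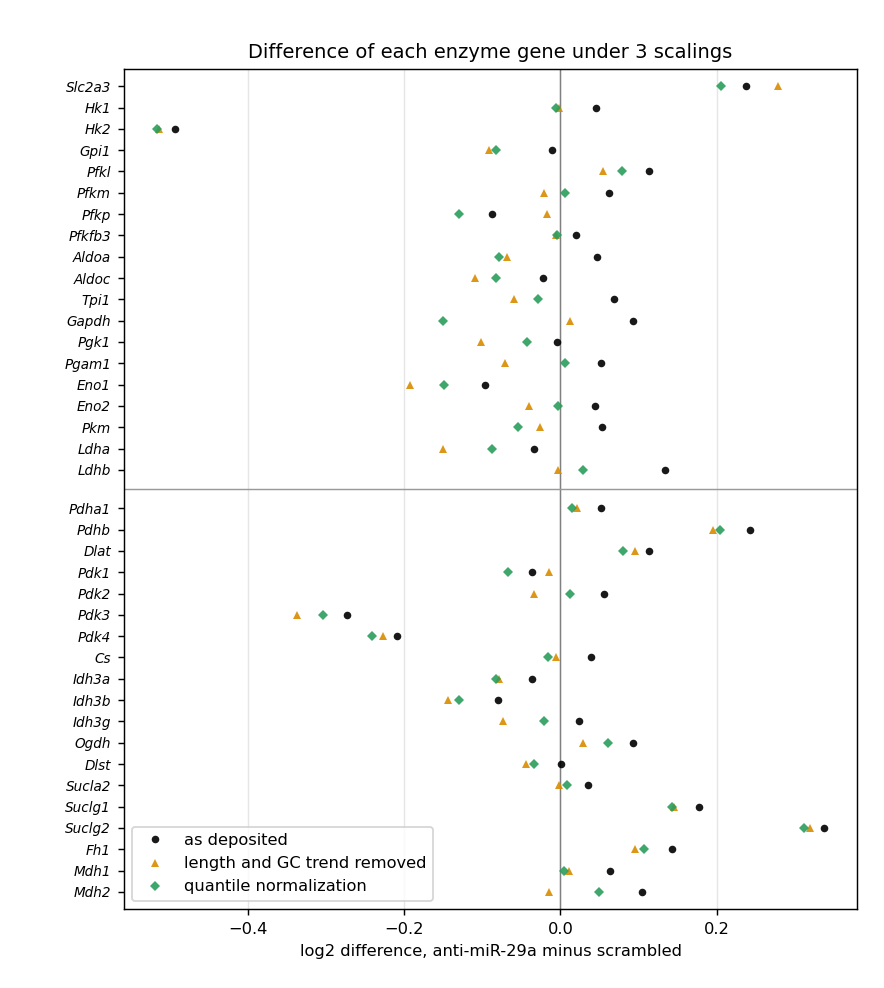
Log2 difference of each gene with the values as deposited (black circles), with a length and GC trend removed from each library (orange triangles) and after quantile normalization (green diamonds). Most marks move to the left of the black ones, while Slc2a3 (0.28 with the trend removed) and Pdhb (0.20) stay on the positive side and Pdk3 (-0.34) on the negative side.

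Other genes of glucose metabolism were taken from lists of transporters, other isozymes, pyruvate entry, cytosolic partners, shuttles, the pentose phosphate route and glycogen. Of 81 listed, 71 passed the filter and 0 passed an adjusted p of 0.05. The median of the 71 was 0.017 log2 units. At an unadjusted p under 0.05 in limma, 3 were higher and 3 lower, 4.23% of the 71 each way. Of all tested rows, 7.54% were higher and 3.18% lower. Groups did not overlap in 2 genes on the higher side (2.82%) and 1 on the lower side (1.41%). Over all tested rows these shares were 4.02% and 2.29%. Slc16a3, which encodes a lactate exporter known from glia and strongly glycolytic cells, read 2.85, 3.07, 2.82 and 2.78 FPKM in the anti-miR-29a libraries, against 1.36, 1.85, 1.39 and 1.59 FPKM in the scrambled libraries. Its groups lay far apart, with a difference of 0.86 log2 units and a standard error of 0.15 (unadjusted p = 0.00015, adjusted p = 0.106). Pdpr, the regulator of the phosphatase that switches pyruvate dehydrogenase back on, read 2.7, 3.2, 2.51 and 3.03 FPKM in the anti-miR-29a libraries, against 4.07, 4.37, 3.98 and 4.54 FPKM in the scrambled libraries. Again no value of one group entered the range of the other, at -0.56 log2 units with a standard error of 0.12 (unadjusted p = 0.00076, adjusted p = 0.2). The neuronal lactate carrier Slc16a7 averaged 2.4 ± 0.717 FPKM in the anti-miR-29a libraries and 3.68 ± 0.922 FPKM in the scrambled libraries (adjusted p = 0.397), and the phosphatase subunit Pdp2 averaged 1.4 ± 0.288 FPKM in the anti-miR-29a libraries and 2.05 ± 0.495 FPKM in the scrambled libraries (adjusted p = 0.443). On the higher side were the muscle-type glycogen phosphorylase Pygm, at 11.3 ± 0.855 FPKM in the anti-miR-29a libraries and 9.42 ± 1.23 FPKM in the scrambled libraries (adjusted p = 0.409), and the mitochondrial aspartate aminotransferase Got2, at 104 ± 5.19 FPKM in the anti-miR-29a libraries and 96.5 ± 3.76 FPKM in the scrambled libraries (adjusted p = 0.455).

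Other subunits of the same complexes had differences of both signs. Succinate dehydrogenase, whose subunits belong to both the cycle and the respiratory chain, had differences of -0.02 for Sdha, 0.14 for Sdhb, 0.01 for Sdhc and 0.02 for Sdhd. Dld, the subunit that the pyruvate and 2-oxoglutarate dehydrogenase complexes share, averaged 32.2 ± 0.8 FPKM in the anti-miR-29a libraries and 30.3 ± 2.82 FPKM in the scrambled libraries (SD, n = 4 each). The carrier subunits that bring pyruvate into mitochondria, Mpc1 and Mpc2, had differences of 0.05 and 0.14.

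Many glycolytic genes are textbook targets of the hypoxia-inducible factors, whose known binding sites include ACGTG. Only this form was searched, so the shares are those of the letters and not of binding sites. In RefSeq promoter windows of 250 bases before to 50 after a start (GRCm38.p6), 17 of the 36 enzyme genes with a window (47.2%) held ACGTG on either strand, counting also the copies inside CACGTG, against 3022 of 10444 tested genes (28.9%). For glycolysis it was 11 of 18 genes (61.1%) and for the citric acid cycle 6 of 18 (33.3%). Of single windows, 45.5% of those of the enzyme genes and 24.6% of those of tested genes held it. Windows of a gene can overlap and repeat the same match, as some of those of Ogdh and Aldoa do. Shares of windows therefore count some matches more than once, which the shares of genes do not. The median GC content of the windows was 60.7% in both sets. The window of Ldha at chr7:46845554-46845853 on the plus strand held the most and is printed for that reason, with each match, read on either strand, in capitals.
Ldha: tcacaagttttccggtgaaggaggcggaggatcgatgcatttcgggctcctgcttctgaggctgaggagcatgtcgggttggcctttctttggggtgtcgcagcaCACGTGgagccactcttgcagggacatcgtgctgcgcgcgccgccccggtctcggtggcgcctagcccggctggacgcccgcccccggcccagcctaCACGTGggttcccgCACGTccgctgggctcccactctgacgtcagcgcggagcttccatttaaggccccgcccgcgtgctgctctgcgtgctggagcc
Of 13 tested hypoxia-response genes outside glycolysis, 3 had a positive (23.1%) and 10 a negative difference, where 56.6% of all tested rows were positive. Their median was -0.054 log2 units. At an unadjusted p under 0.05 in limma there were 0 of them, where 7.54% of all tested rows were higher and 3.18% lower. Vegfa, the vascular growth factor among them, averaged 19.3 ± 0.978 FPKM in the anti-miR-29a libraries and 20.2 ± 1.04 FPKM in the scrambled libraries (SD, n = 4 each). A match of these letters says nothing about whether a factor was bound in this tissue. A part of hypoxia in the differences of the enzyme genes was not tested.

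Markers of other cell types were read in the same libraries. All 9 tested meningeal fibroblast markers were positive, with a median of 0.51 log2 units, where 56.6% of all tested rows were positive. At an unadjusted p under 0.05 in limma 4 were higher (44.4%), where 7.54% of all tested rows were. None of the listed 10 was at 0 in all libraries, and their sum ran from 482 to 740 FPKM in the anti-miR-29a libraries and from 330 to 519 FPKM in the scrambled libraries. Astrocyte markers were positive in 8 of 12, with a median of 0.083 and sums of 1071 to 1477 FPKM in the anti-miR-29a libraries and 1007 to 1211 FPKM in the scrambled libraries. At an unadjusted p under 0.05 in limma 3 astrocyte markers were higher (25%) and 0 lower. Groups did not overlap in 1 of the 12, on the higher side (8.33%, against 4.02% of all tested rows). Gfap, the marker of reactive astrocytes, averaged 275 ± 98.8 FPKM in the anti-miR-29a libraries and 169 ± 70.1 FPKM in the scrambled libraries (adjusted p = 0.457). All 10 oligodendrocyte markers were negative, with a median of -0.15. Neuron markers were positive in 7 of 13, with a median of 0.00094, and microglia markers in 7 of 12, with a median of 0.015. In limma, 2 neuron markers were higher at an unadjusted p under 0.05 (15.4%) and 1 lower (7.69%, against 3.18% of all tested rows). For Syt1 and Gad1, 2 of the 13 (15.4%), every anti-miR-29a library lay below every scrambled one, against 2.29% of all tested rows. At the same p, 2 microglia markers were higher (16.7%) and 1 oligodendrocyte marker lower (10%). Endothelial and mural markers were positive in 6 of 11, with a median of 0.060 and sums of 93.2 to 124 FPKM in the anti-miR-29a libraries and 89.9 to 111 FPKM in the scrambled libraries. Oligodendrocyte precursor markers were positive in 3 of 6, with a median of -0.020 and sums of 60.4 to 72.1 FPKM in the anti-miR-29a libraries and 57.1 to 72.3 FPKM in the scrambled libraries. Red blood cell markers had 6 rows, of which 4 were positive and 0 had an unadjusted p under 0.05. Their median was 0.86 with single rows from -1.85 to 2.65, and their sum ran from 176 to 252 FPKM in the anti-miR-29a libraries and from 112 to 250 FPKM in the scrambled libraries. The part of these cell types in the differences of the enzyme genes was not tested.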

How the data were processed

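Gene expression was measured in 8 visual cortex libraries, 4 per group. The authors deposited one FPKM value for each row in each library. The submitters' processing notes name CASAVA 1.8.2, Bowtie, Cuffnorm and build mm10, and the annotation, filters and Cuffnorm scaling are not given in the labels and headers read here. The library kit, per the labels' protocols a TruSeq RNA kit for total RNA, is one without strand marking.

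From these values log2(FPKM + 0.1) was taken, which understates folds of low genes. Rows with a mean of at least 0.5 FPKM (13912 of 24883) entered a limma 3.58.1 fit (R 4.3.3) of group alone, with a variance trend, two-sided tests and Benjamini-Hochberg adjustment over all fitted rows. Rows that repeat a symbol (537) stayed separate. Isozyme ratios were tested by exact permutation in Python 3.11.15. Simulated data, in which 200 genes had been shifted, were used to test this fit.

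Transcript lengths, GC content, positions and 3′ UTRs came from GENCODE M21 (99.3% of tested symbols matched), promoters and the microRNA from RefSeq. Copies were sought as shared 100-base stretches of annotated transcripts. Low-value spacing gave relative depth at a tolerance of 0.02 log2 units, on which 26.8% to 35.9% of ratios fell, against 5.98% to 7.17% on shifted grids.

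Every member is named. Values in each library are given for members without overlap or with an unadjusted p under 0.05, for the 4 of smallest p per branch and for the ratio members. The members, gene lists and ratios were chosen with earlier results of these data known. The alternatives are given in the closing section. Protein sequences were not used here.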

Additional observations from a re-analysis of the deposited data

Results flagged for a closer look

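Of 76 sets of 4 values (38 genes in each of the 2 groups), 4 held a library far from the other 3, with a gap above the 95% critical value of Dixon's test for 4 values. Chance gives about 1 in 20 such sets. Cs, citrate synthase, read 66.8 FPKM in anti-miR-29a library 1, below the other 3 at 80.0 to 80.8 FPKM. Pdha1 read 48.3 FPKM in scrambled library 1, below the other 3 at 53.7 to 54.5 FPKM. Pfkp read 65.7 FPKM in scrambled library 4, above the other 3 at 60.4 to 61.1 FPKM. Pgk1 read 134 FPKM in scrambled library 2, above the other 3 at 123 to 125 FPKM.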

How the results depend on the processing

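No member passed an adjusted p of 0.05 in the 20 alternative settings. One of them, a mean of at least 5 FPKM, leaves out 4 members. Of the recomputed values, 709 of 756 for members and 101 of 104 for ratios kept their direction and call. Changed filters, robust empirical Bayes and the replicate block cannot alter a member's difference, and summing copies alters only Eno1 and Gapdh. Part of the member count was therefore fixed in advance, and calls were kept because no member passed in any setting. Replicate numbers did not pair the libraries: same-numbered libraries correlated at -0.11 to 0.014, and 0 of 8 correlated best with their own number. With the replicate number as a block 0 genes of the table passed, and at an unadjusted p under 0.05 there were 0 members lower and 6 higher, with Mdh2 and Suclg1 added to the 4.

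Over the whole table, 2 rows passed. The count was 1 with no filter, 1 at a mean of at least 5 FPKM, 1 with the trend removed, 0 with transcripts of at least 200 nt only and 10 with robust empirical Bayes. Members lower at an unadjusted p under 0.05 numbered 0 with a pseudocount of 1, 0 with no filter and 0 at a mean of at least 5 FPKM, 3 after quantile normalization and 3 with the trend removed. Members on the higher side numbered 6 with sample weights, with Fh1 and Mdh2 added, 2 after quantile normalization and 2 with the trend removed. Those without overlap on the higher side numbered 2 after quantile normalization, 2 with the trend removed and 3 with median centring. These are 5.26%, 5.26% and 7.89% of the members, where 2.70%, 2.36% and 2.93% of all tested rows had no overlap in that direction.

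The median over all members was -0.011 after quantile normalization and -0.019 with the trend removed. For glycolysis it was -0.042, -0.040 and, with median centring, 0.016, and for the citric acid cycle -0.0059 with the trend removed. With 1 library left out, rows passing over the table numbered 1 to 3, members higher 3 to 7, lower 0 to 2, without overlap 5 to 9 on the higher and 0 to 1 on the lower side. The medians were then 0.028 to 0.062 for all members, 0.029 to 0.057 for glycolysis and 0.019 to 0.069 for the citric acid cycle. Members higher numbered 7 without anti-miR-29a library 1 and 7 without scrambled library 3, and without anti-miR-29a library 1 the members without overlap numbered 9. Without anti-miR-29a library 2, Hk2 and Pdk3 were the 2 lower members. Pdk3 missed the unadjusted threshold without anti-miR-29a library 3 or 4 or scrambled library 1, 2 or 4. Lower without overlap was Hk2 without anti-miR-29a library 2, Pfkp without anti-miR-29a library 3 and Pdk3 without scrambled library 3. Shares over all rows are not given here for left-out libraries, the replicate block or sample weights. The counts of members under those settings are therefore not read as results about the members.

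Signs turned after quantile normalization for Hk1 (-0.0055), Pfkfb3 (-0.0044), Aldoa (-0.078), Tpi1 (-0.029), Gapdh (-0.15), Eno2 (-0.0035), Pkm (-0.054), Cs (-0.016), Idh3g (-0.021) and Dlst (-0.034). With median centring they turned for Pfkfb3 (-0.0095), Idh3g (-0.0061) and Dlst (-0.028). With the trend removed they turned for Hk1 (-0.0022), Pfkm (-0.021), Pfkfb3 (-0.0062), Aldoa (-0.069), Tpi1 (-0.059), Pgam1 (-0.071), Eno2 (-0.040), Pkm (-0.027), Ldhb (-0.0037), Pdk2 (-0.034), Cs (-0.0059), Idh3g (-0.074), Dlst (-0.044), Sucla2 (-0.0023), Mdh2 (-0.014), Pfkp over Pfkm (0.0030) and Mdh1 over Mdh2 (0.025). Sample weights turned Pgk1 (0.0048), and summing near-identical copies turned Eno1 (0.053) and Eno1 over Eno2 (0.0093). With 1 library left out the sign turned for Aldoc (-0.052 to 0.029), Dlst (-0.047 to 0.062), Gpi1 (-0.036 to 0.028), Idh3a (-0.064 to 0.0054), Ldha (-0.067 to 0.014), Pdk1 (-0.086 to 0.0049), Pfkfb3 (-0.044 to 0.084) and Pgk1 (-0.039 to 0.044). The cause of these turns was not tested. Summing the copies was chosen after seeing the data.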
